A study of Erythranthe guttata with 80 samples.

Results

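Migut.B01186 and Migut.B01396 are the ST2A sulfotransferase genes of jasmonate catabolism whose coastal and inland levels lie in opposite order in floral buds of the yellow monkeyflower, *Mimulus guttatus*. They are 2 of the 28140 genes in the count table, and they were selected on their bud levels, because Migut.B01186 was higher and Migut.B01396 lower in coastal than in inland buds. The bud comparison is therefore given as a description with no test. The study also listed these genes with the 2leaf plants in view, so the coastal against inland difference at 2leaf is described in the same way. A further ST2A gene of the study was not analysed here.

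Jasmonates are lipid-derived hormones that steer defence against herbivores, growth and the development of flowers. In Arabidopsis, the active hormone is the conjugate of jasmonic acid with isoleucine, which is perceived by the COI1 receptor together with JAZ repressor proteins. It is turned over by oxidation through CYP94 enzymes and by amidohydrolases such as IAR3 and ILL6, which split off the amino acid. ST2A is known from Arabidopsis as the enzyme that adds a sulfate group to 12-hydroxyjasmonic acid, a product of that turnover.

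RNA was measured by 3′-Tag-Seq, which counts reads from the 3′ ends of transcripts, in 80 plants. The coastal perennial accession SWB-4 (Coast) gave leaves from the 2leaf, 4leaf, 6leaf and 8leaf stages as well as floral buds. It was set against the inland annual accession LMC-17 (Inland), which gave leaves from 2leaf and 4leaf plants and floral buds. Each of the 8 groups held 10 plants, each plant gave 1 tissue sample, and all plants came from self-fertilised seed raised in a common growth chamber with no further treatment. Each ecotype was represented by a single inbred accession, so differences between accessions and between ecotypes cannot be told apart, nor can the stage of a plant and the position of the leaf pair taken from it. The labels give no plant age at sampling.

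The total count per library lay between 1256776 and 6090402, with a median of 3839604. No pair of libraries held identical values. The bud labels were checked against 3 photosynthesis genes that the study lists for these samples, which makes the check not independent. PPL1, CSP41A and APX4 were each higher in every leaf library than in every bud library, with the lowest leaf value of PPL1 at 156 CPM and its highest bud value at 56.3 CPM. CPM is the read count of a gene relative to the size of its library. The libraries were randomised over 4 library pools, each with 2 or 3 plants of every group. In a whole-tissue sample, fewer cells that express a gene and less RNA per cell cannot be told apart. Reads were assigned by alignment, and how far reads could be shared between similar sulfotransferase genes was not tested.

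Levels are given as CPM after library sizes were scaled by the trimmed mean of M values (TMM). The 2 genes were detected in all 80 plants, but at different depths. Migut.B01186 rested on 3 to 38 reads per plant in the 4 Coast leaf groups and in Inland 4leaf plants. It rested on 125 to 261 reads in Coast buds, 20 to 156 in Inland 2leaf plants and 11 to 44 in Inland buds. Migut.B01396 rested on 4 to 32 reads per plant in Coast buds and on 15 to 150 in Coast leaves. In Inland plants it rested on 38 to 91 reads at 2leaf, 143 to 334 at 4leaf and 9 to 118 in buds.

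Migut.B01186 was a low gene in Coast leaves and reached its highest group mean in Coast buds. Along the Coast series it averaged 3.26 ± 0.770 CPM at 2leaf, 4.98 ± 2.48 at 4leaf, 2.06 ± 0.971 at 6leaf, 1.71 ± 0.842 at 8leaf and 34.3 ± 9.37 in buds (SD, n = 10 each). In Inland plants it averaged 18.5 ± 12.6 CPM at 2leaf, 2.83 ± 1.27 at 4leaf and 5.73 ± 0.872 in buds (SD, n = 10 each). Coast buds and Inland 2leaf plants were thus the groups with the highest means. Their means differed by 15.8 CPM and their ranges overlapped through the upper Inland 2leaf plants. The Inland 2leaf range did not overlap with that of Inland buds, the next group in the order. From there down the order was Inland bud, Coast 4leaf, Coast 2leaf, Inland 4leaf, Coast 6leaf and Coast 8leaf, and each of these groups overlapped with its neighbour and differed from it by less than the larger SD of the pair.

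Migut.B01396 was distributed otherwise, with its highest mean in Inland 4leaf plants and its lowest in Coast buds. Along the Coast series it averaged 14.1 ± 5.13 CPM at 2leaf, 22.4 ± 10.3 at 4leaf, 19.9 ± 8.65 at 6leaf, 15.1 ± 7.93 at 8leaf and 1.98 ± 1.17 in buds (SD, n = 10 each). In Inland plants it averaged 26.1 ± 7.08 CPM at 2leaf, 79.5 ± 17.3 at 4leaf and 8.39 ± 3.27 in buds (SD, n = 10 each). Inland 4leaf plants stood alone, since none overlapped with the next group, Inland 2leaf. The groups from Inland 2leaf through Coast 4leaf, Coast 6leaf and Coast 8leaf to Coast 2leaf each differed from the next by less than the larger SD. Both bud groups came last.

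**Figure D1:**
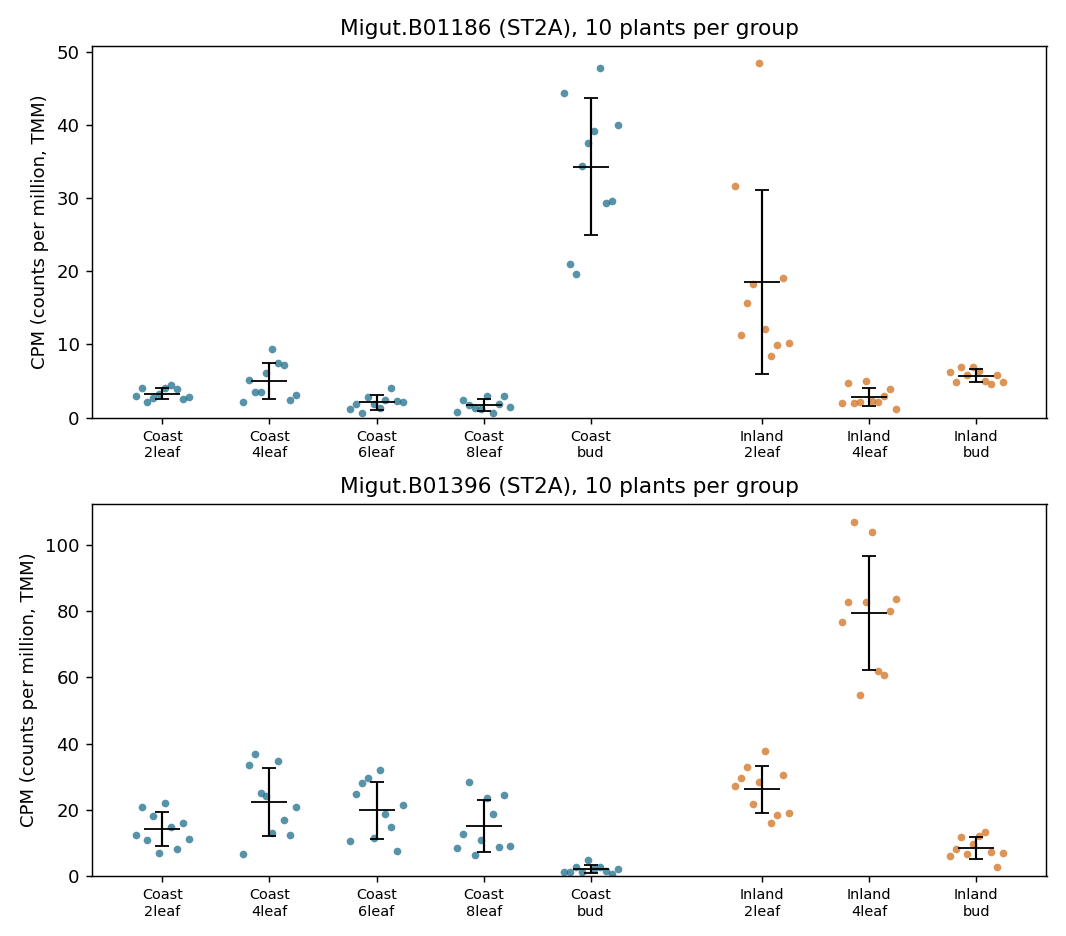
Level of each ST2A gene in every plant, as CPM after TMM scaling on a linear axis, for the 5 Coast groups (blue) and the 3 Inland groups (orange); each point is a plant, and the bars are the mean ± SD of 10 plants. Migut.B01186 averages 34.3 CPM in Coast buds and 18.5 CPM in Inland 2leaf plants and is under 10 CPM in every plant of the other groups, whereas Migut.B01396 averages 79.5 CPM in Inland 4leaf plants and 1.98 CPM in Coast buds.

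The place of each gene among all genes shifted with tissue and accession. Of the 17136 genes kept for the fit over 80 libraries, 76.6% had a lower mean CPM than Migut.B01186 in Coast buds, but 14.1% did in Coast 8leaf plants. For Migut.B01396 the share of genes with a lower mean was 10.1% in Coast buds and 89.6% in Inland 4leaf plants. These shares compare read numbers per transcript end, which carry no correction for how well each transcript is captured.

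At 4leaf, both accessions had been sampled in a comparison that the choice of the genes did not use. The lowest, median and highest levels of Migut.B01396 were 6.73, 22.4 and 36.9 CPM in Coast plants, against 54.6, 81.5 and 107 CPM in Inland plants. Every Coast plant was below every Inland plant. The share of all genes without overlap was not counted for this or any other comparison given here. The gene was lower in Coast, by a log2 fold change (LFC) of -1.82 with an SE of 0.22 (edgeR quasi-likelihood F test, Benjamini-Hochberg adjusted p = 3.67e-10), and the mean of the Inland plants was 3.55 times that of the Coast plants. The LFC was negative in all 4 library pools and lay between -2.31 and -1.23.

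Migut.B01186 differed in the other direction at 4leaf and by less. Its lowest, median and highest levels were 2.13, 4.29 and 9.37 CPM in Coast plants, against 1.21, 2.19 and 4.93 CPM in Inland plants. The groups overlapped, although 5 of the 10 Coast plants were above every Inland plant. The LFC was 0.82 with an SE of 0.29 (edgeR, adjusted p = 0.0135), and it was positive in all 4 pools, between 0.44 and 0.98. With voom and limma, the tool of the study, the LFC was 0.75 and the difference missed the threshold (adjusted p = 0.0698), and over all the alternatives tried the adjusted p lay between 0.00504 and 0.0698. Of the 16735 genes tested at 4leaf, 28.6% were called higher and 28.8% lower in Coast at an adjusted p under 0.05, which is the background against which the calls of the 2 genes are read. Of the genes tested, 11.8% had a larger absolute LFC than Migut.B01396 and 35.1% had a larger one than Migut.B01186.

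At 2leaf, both genes stood lower in Coast plants. Migut.B01186 had a lowest, median and highest level of 2.11, 3.04 and 4.39 CPM in Coast plants, against 8.46, 13.9 and 48.5 CPM in Inland plants, with no overlap. Its LFC was -2.48 with an SE of 0.26, and its sign was the same in all 4 pools. The Inland group was spread widely, because plant 5 had 48.5 CPM, the next highest plant 31.8 CPM and the median plant 13.9 CPM. Without plant 5 the LFC was -2.18, a setting chosen after seeing the data. Migut.B01396 had 6.80, 13.6 and 22.02 CPM in Coast plants, against 16.1, 27.8 and 37.7 CPM in Inland plants, and 6 of 10 Coast plants were below every Inland plant. Its LFC was -0.85 with an SE of 0.24. At this stage 25.5% of all genes were called higher and 24.7% lower in Coast.

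In buds, the values on which the genes were chosen lay far apart for Migut.B01186. Its lowest, median and highest levels were 19.6, 35.99 and 47.8 CPM in Coast buds, against 4.58, 5.81 and 6.95 CPM in Inland buds, and the mean of Coast buds was 5.99 times that of Inland buds, an LFC of 2.57 with an SE of 0.24. Migut.B01396 had 0.645, 1.75 and 4.71 CPM in Coast buds, against 2.73, 7.54 and 13.4 CPM in Inland buds. Its LFC was -2.07 with an SE of 0.28, and 8 of 10 Coast buds were below every Inland bud. Within pools the bud LFC lay between 2.39 and 2.75 for Migut.B01186 and between -2.65 and -1.70 for Migut.B01396. Among all genes, 31.4% were called higher and 32.7% lower in Coast buds.

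**Figure D2:**
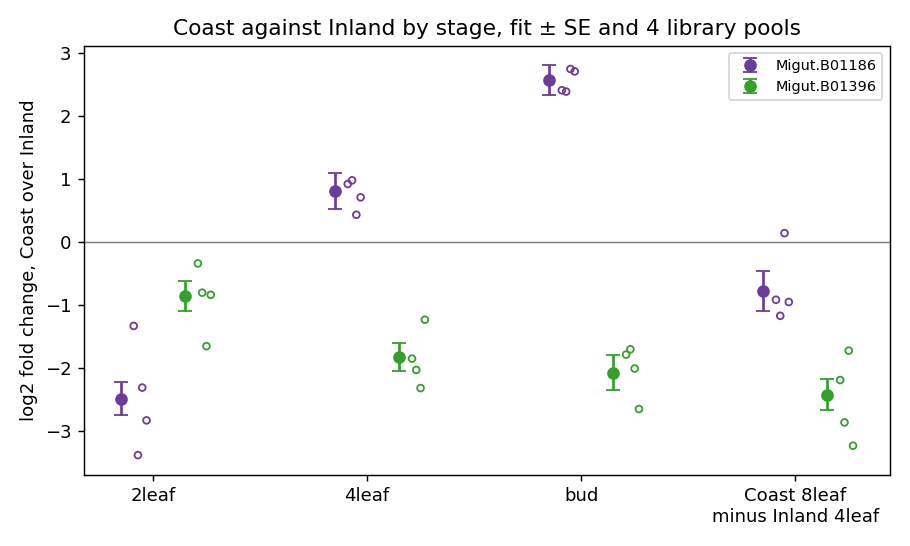
LFC of Coast over Inland for each ST2A gene at 2leaf, at 4leaf, in buds, and for Coast 8leaf over Inland 4leaf plants; filled points are the fit with bars of ± 1 SE, and open points are the same LFC within each of the 4 library pools. Migut.B01186 moves across 0, from -2.48 at 2leaf through 0.82 at 4leaf to 2.57 in buds, while Migut.B01396 stays below 0 at -0.85, -1.82 and -2.07.

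Between 2leaf and 4leaf, the 2 genes went opposite ways in Inland plants. Migut.B01186 fell to 1.21, 2.19 and 4.93 CPM (lowest, median and highest) at 4leaf, against 8.46, 13.9 and 48.5 CPM at 2leaf. No 4leaf plant reached the lowest 2leaf plant. The LFC was -2.70 with an SE of 0.27 (edgeR, adjusted p = 1.33e-11), the mean at 2leaf was 6.56 times that at 4leaf, and 0.741% of the 16735 genes tested had a larger absolute LFC. Without Inland 2leaf plant 5 the LFC was -2.40 (edgeR, adjusted p = 3.59e-11). Migut.B01396 rose to 54.6, 81.5 and 107 CPM at 4leaf, against 16.1, 27.8 and 37.7 CPM at 2leaf, again with no overlap. Its LFC was 1.61 with an SE of 0.22 (edgeR, adjusted p = 1.73e-07), with 3.04% of genes having a larger absolute LFC. Both signs held in all 4 pools, where the LFC lay between -3.18 and -1.85 for Migut.B01186 and between 1.11 and 1.95 for Migut.B01396. Among all genes, 8.81% were called higher and 8.09% lower at 4leaf. This step shares the 2leaf plants with which the study listed the genes.

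In Coast plants the same step gave no called change. At 4leaf, against 2leaf, Migut.B01186 had 2.13, 4.29 and 9.37 CPM (lowest, median and highest) against 2.11, 3.04 and 4.39 CPM, with an LFC of 0.60 and an SE of 0.28 (edgeR, adjusted p = 0.184). Migut.B01396 had 6.73, 22.4 and 36.9 CPM at 4leaf against 6.80, 13.6 and 22.02 CPM at 2leaf, with an LFC of 0.64 and an SE of 0.23 (edgeR, adjusted p = 0.0699). That adjusted p lay between 0.0175 and 0.145 over the alternatives. Among all genes, 4.11% were called higher and 5.04% lower at this step.

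The difference between the accessions in this step was tested as the interaction of genotype and stage. For Migut.B01186 the interaction was 3.30 with an SE of 0.39 (edgeR, adjusted p = 1.38e-08), with 0.598% of genes having a larger absolute value. It was positive in all 4 pools, between 2.25 and 4.36. Without Inland 2leaf plant 5 it was 3.00 (edgeR, adjusted p = 1.04e-08). For Migut.B01396 the interaction was -0.96 with an SE of 0.32 and narrowly missed the threshold (edgeR, adjusted p = 0.0584), and it was negative in all 4 pools, between -1.51 and -0.40. That call depended on the setting, since 6 alternatives put it past the threshold, among them voom and limma at -1.08 (adjusted p = 0.0253), DESeq2 at -0.97 (adjusted p = 0.0491) and a fit without Inland 4leaf plant 4, Coast 2leaf plant 9 and Inland bud plants 6 and 7 at -0.99 (adjusted p = 0.0410). Over all its alternatives the adjusted p lay between 0.0253 and 0.0828. The interaction was called in the positive direction for 2.54% and in the negative direction for 3.94% of all genes, and it shares the 2leaf plants too.

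Later Coast leaf stages have no counterpart in Inland plants. Migut.B01186 had a lowest, median and highest level of 2.13, 4.29 and 9.37 CPM at 4leaf, 0.618, 2.02 and 4.10 CPM at 6leaf, and 0.585, 1.59 and 2.99 CPM at 8leaf. It fell between 4leaf and 6leaf, with an LFC of -1.28 and an SE of 0.29 (edgeR, adjusted p = 0.00170), and in all 4 pools, where 6.74% of all genes were called lower and 4.90% higher. From 6leaf to 8leaf the LFC was -0.30 with an SE of 0.32 (edgeR, adjusted p = 0.872), where 0.263% of all genes were called lower and 0.356% higher. At 8leaf it was lower than at 2leaf by an LFC of -0.97 with an SE of 0.31 (edgeR, adjusted p = 0.00947), where 19.5% of all genes were called lower and 20.5% higher. With scaling by library size alone that LFC was -0.55 and not called (adjusted p = 0.116). This comparison, too, shares the 2leaf plants with which the study listed the genes.

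Migut.B01396 gave no called difference among the Coast leaf stages. Its lowest, median and highest levels were 7.43, 19.97 and 32.003 CPM at 6leaf and 6.26, 11.7 and 28.2 CPM at 8leaf, and both ranges lay across those of the earlier stages. The LFC was -0.18 with an SE of 0.25 from 4leaf to 6leaf (edgeR, adjusted p = 0.717), -0.41 with an SE of 0.25 from 6leaf to 8leaf (adjusted p = 0.671), and 0.06 with an SE of 0.26 from 2leaf to 8leaf (adjusted p = 0.881). The signs of the first and the last of these turned under 1 alternative each.

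Set against each other at the last leaf stage before buds, Coast 8leaf plants had less of both genes than Inland 4leaf plants. Migut.B01396 had 6.26, 11.7 and 28.2 CPM in Coast 8leaf plants, against 54.6, 81.5 and 107 CPM in Inland 4leaf plants, with an LFC of -2.41 and an SE of 0.25 (edgeR, adjusted p = 6.92e-14). There was no overlap, and the sign was the same in all 4 pools. Migut.B01186 had 0.585, 1.59 and 2.99 CPM in Coast 8leaf plants, against 1.21, 2.19 and 4.93 CPM in Inland 4leaf plants, with an LFC of -0.77 and an SE of 0.32 (edgeR, adjusted p = 0.0297). This lower level was negative in 3 of 4 pools, and it was not called with voom and limma at -0.82 (adjusted p = 0.0599) or with library size alone at -0.45 (adjusted p = 0.207). Among all genes, 33.2% were called lower and 32.9% higher in Coast 8leaf plants.

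Between the last leaf stage and buds, the levels of the 2 genes again lay in opposite directions in each accession. In Coast plants, buds had 20.1 times the mean Migut.B01186 level of 8leaf plants, an LFC of 4.34 with an SE of 0.27, and the mean Migut.B01396 level of 8leaf plants was 7.59 times that of buds, an LFC of -2.87 with an SE of 0.30. Neither gene overlapped between these groups, and the share of all genes without overlap between them was not counted. In Inland plants, buds had 2.03 times the mean Migut.B01186 level of 4leaf plants, an LFC of 0.98 with an SE of 0.28, with 7 of 10 buds above every 4leaf plant. The mean Migut.B01396 level of Inland 4leaf plants was 9.48 times that of Inland buds, an LFC of -3.25 with an SE of 0.27. The Inland values depended on the scaling, since library size alone gave LFCs of 1.68 for Migut.B01186 and -2.54 for Migut.B01396. These values use the buds by which the genes were chosen and are given with no test. Among all genes, 37.2% were called higher and 34.5% lower in Coast buds than at 8leaf, and 35.2% higher and 33.4% lower in Inland buds than at 4leaf. The 3 photosynthesis genes also separated leaf from bud libraries without overlap, and the part of tissue composition in the bud values was not tested.

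**Figure D3:**
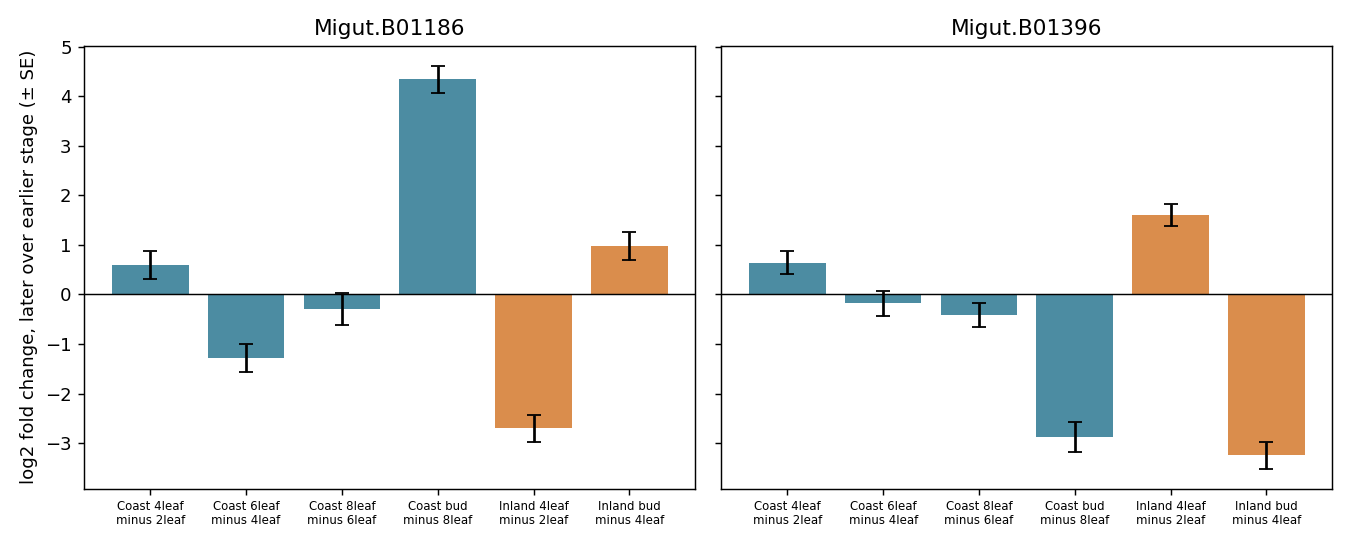
LFC of each later stage over the one before it for Migut.B01186 and Migut.B01396, with bars of ± 1 SE, for the 4 steps in Coast (blue) and the 2 steps in Inland (orange). At Inland 4leaf over 2leaf the bars are -2.70 for Migut.B01186 and 1.61 for Migut.B01396, and at Coast bud over 8leaf they are 4.34 and -2.87.

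Since the 2 genes were counted in the same libraries, their balance within a plant does not depend on how libraries are scaled. The share of Migut.B01186 in the summed reads of the 2 genes was, for each group as the mean of 10 plants with its SD, 20.1% ± 7.00 at Coast 2leaf, 19.6% ± 9.96 at 4leaf, 11.1% ± 6.89 at 6leaf, 11.3% ± 4.86 at 8leaf and 94.3% ± 3.42 in buds. In Inland plants it was 39.02% ± 12.0 at 2leaf, 3.54% ± 1.53 at 4leaf and 42.5% ± 11.1 in buds. Coast buds were the only group in which every plant had more Migut.B01186 than Migut.B01396 reads, with a lowest share of 87.6%. The highest share among Inland 4leaf plants was 5.62%.

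The log2 ratio of Migut.B01186 to Migut.B01396 reads, with 0.5 added to each, was tested in 5 comparisons that leave out buds, together with 5 tests of the summed level. Those against 2leaf plants are not free of the choice of the genes, since they share the plants with which the study listed them. At 4leaf the ratio was -2.13 ± 0.85 in Coast and -4.81 ± 0.69 in Inland plants (SD), a difference of 2.69 with an SE of 0.35. The two-sided permutation test gave the smallest p that 100000 resamples allow (p = 1e-05, adjusted p = 5.00e-05 over 10 tests). Adjusted p-values of 5.00e-05, 6.67e-05 and 7.50e-05 from these permutation tests all lie near that limit. They differ by the draw of resamples and do not rank the comparisons. In Inland plants the ratio was -4.81 ± 0.69 at 4leaf and -0.66 ± 0.73 at 2leaf, a difference of -4.15 with an SE of 0.32 (permutation test, adjusted p = 7.50e-05). In Coast plants it was -2.13 ± 0.85 at 4leaf and -2.002 ± 0.587 at 2leaf, a difference of -0.13 with an SE of 0.33 (permutation test, adjusted p = 0.705), with 2 pools on each side of 0. Coast 8leaf plants, at -3.04 ± 0.83, were lower than Coast 2leaf plants by -1.03 with an SE of 0.32 (permutation test, adjusted p = 0.00380). They were higher than Inland 4leaf plants by 1.78 with an SE of 0.34 (permutation test, adjusted p = 0.000350). All 4 pools had the sign of the pooled difference in each of these comparisons other than Coast 4leaf against 2leaf.

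**Figure D4:**
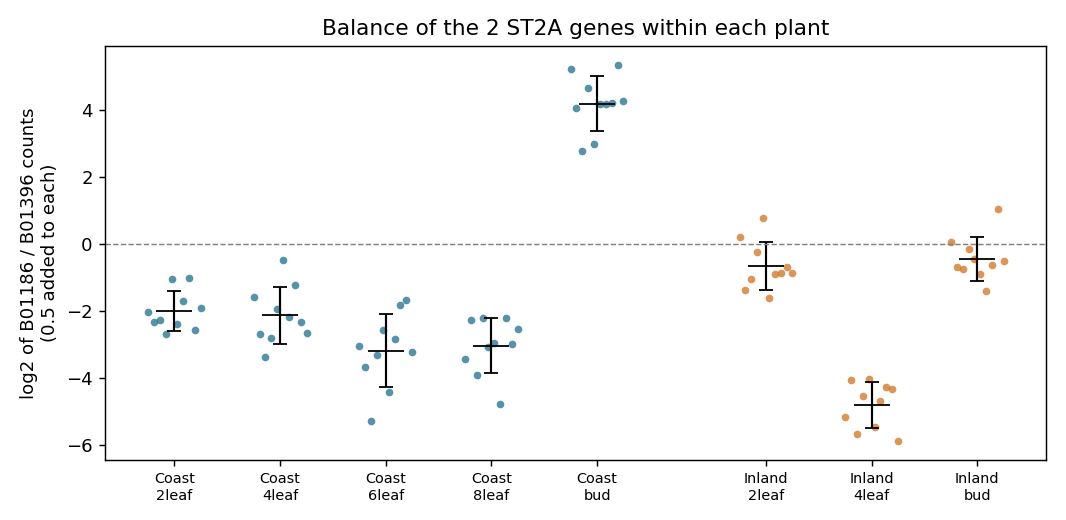
Log2 ratio of Migut.B01186 to Migut.B01396 reads in every plant, with 0.5 added to each count, for Coast (blue) and Inland (orange) groups; bars are the mean ± SD of 10 plants and the dashed line marks equal counts. Coast buds lie at 4.19 ± 0.83 and Inland 4leaf plants at -4.81 ± 0.69, the groups with the highest and the lowest mean.

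The summed level of the 2 genes, as log2(CPM + 0.5), followed the more abundant gene. At 4leaf it was 4.68 ± 0.68 in Coast and 6.34 ± 0.31 in Inland plants, a difference of -1.67 with an SE of 0.24 (permutation test, adjusted p = 6.67e-05). In Inland plants it was 6.34 ± 0.31 at 4leaf and 5.42 ± 0.51 at 2leaf, so that the sum rose by 0.93 with an SE of 0.19 although Migut.B01186 fell (permutation test, adjusted p = 0.000350). In Coast plants the sum was 4.68 ± 0.68 at 4leaf and 4.10 ± 0.44 at 2leaf, a difference of 0.58 with an SE of 0.26 (permutation test, adjusted p = 0.0481). Coast 8leaf plants, at 3.96 ± 0.70, differed from Coast 2leaf plants by -0.14 with an SE of 0.26 (permutation test, adjusted p = 0.658). They were lower than Inland 4leaf plants by -2.39 with an SE of 0.24 (permutation test, adjusted p = 5.00e-05). The tests of the sum against 2leaf plants share the plants with which the study listed the genes. On the linear scale the mean sum was 36.3 CPM in Coast buds and 14.1 CPM in Inland buds.

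The spread between plants of a group was set against the SD that counting alone would give. For Migut.B01186 the SD of CPM was 0.728 times the counting SD at Coast 2leaf and 0.673 times in Inland buds, so that differences between plants of these groups were not detectable at this depth. It was 2.03 times at Coast 4leaf, between 1.30 and 1.34 times at Inland 4leaf, Coast 6leaf and Coast 8leaf, 3.95 times in Coast buds and 4.65 times at Inland 2leaf. For Migut.B01396 it lay between 2.05 and 4.23 times in all 8 groups.

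A relation between the deviations of the 2 genes from their group means was tested within groups and did not pass. Over 80 plants Pearson's r was 0.19 (permutation of plants within groups, p = 0.112, adjusted p = 0.579 over 43 pairs) and Spearman's rho was 0.18 (permutation p = 0.131, adjusted p = 0.590), and r was 0.23 without the 2 plants farthest from the median of Migut.B01186. The sign was positive in 6 of 8 groups. At Coast 2leaf, 6leaf and 8leaf, Inland 4leaf and in Inland buds, the SD of Migut.B01186 was at most 1.34 times the counting SD. A relation with Migut.B01186 could therefore be missed in those groups. None of the 42 pairs of an ST2A gene with one of 21 other genes, mostly of the jasmonate pathway, passed the adjusted threshold. The largest r with Migut.B01186 was that of the MYC2 gene Migut.E00934 at 0.32 (permutation p = 0.0108, adjusted p = 0.155, rho = 0.21 with permutation p = 0.0825, adjusted p = 0.590), and r was 0.34 without the 2 farthest plants. It was positive in 5 of 8 groups, from -0.45 at Coast 8leaf to 0.84 at Coast 4leaf. AOS Migut.J00934 came close, with an r of 0.317 (permutation p = 0.00738, adjusted p = 0.155, rho = 0.31 with permutation p = 0.00896, adjusted p = 0.385). Its r was positive in 7 of 8 groups, from -0.72 in Inland buds to 0.79 at Coast 4leaf. The largest r with Migut.B01396 was that of JAZ3 at 0.28 (permutation p = 0.0104, adjusted p = 0.155, rho = 0.19 with permutation p = 0.0993, adjusted p = 0.590), and r was 0.21 without the 2 farthest plants. That r was positive in 7 of 8 groups, from -0.53 at Inland 2leaf to 0.64 at Coast 8leaf.

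A list of 21 other genes, which covers only part of the jasmonate pathway, was set beside the ST2A genes, and all 21 were tested. The CYP94 genes and further JAZ genes that the study describes are not on it and were not analysed here, so its counts and medians do not stand for the pathway. At 4leaf, 4 were higher and 14 were lower in Coast plants and 3 were not called, with a median LFC of -1.56 against -0.01 over all genes, beside 28.6% of all genes called higher and 28.8% lower. As the study picked its genes with these samples in hand, the count gives no independent support for either direction. All 5 amidohydrolases on the list were lower in Coast plants, as Migut.B01396 was and Migut.B01186 was not. Not all of them are tied to jasmonate alone, since the study counts both ILL6 genes and ILL3 with the auxin pathway, and a role of LAF3 in jasmonate breakdown is not established. IAR3 averaged 7.03 CPM in Coast and 64.7 CPM in Inland plants, with an LFC of -3.19 and an SE of 0.25 (edgeR, adjusted p = 3.38e-17). The ILL6 genes Migut.C01122 and Migut.N03278 had LFCs of -2.06 and -1.69, ILL3 had -4.27 with 11 reads in all 10 Coast plants, and LAF3 had -0.69.

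The biosynthesis genes were divided at 4leaf. LOX2, a lipoxygenase at the start of the pathway, averaged 224 CPM in Coast and 48.3 CPM in Inland plants, with an LFC of 2.22 and an SE of 0.36 (edgeR, adjusted p = 4.95e-07). The allene oxide synthase genes went apart, with an LFC of 1.59 for AOS Migut.B00287 and -1.63 for AOS Migut.J00934, and so did the oxophytodienoate reductase genes, with 2.58 for OPR1 Migut.B00747, -1.85 for Migut.B00744 and -1.56 for Migut.B00746, a gene at 0.438 CPM in Coast and 1.36 CPM in Inland plants that was not called with voom and limma (-0.94, adjusted p = 0.120) or without the 4 libraries named above (-1.02, adjusted p = 0.0852). All 6 biosynthesis genes were called, 3 in each direction. Opposite members of a family were thus also present among AOS and OPR1 genes.

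Of the signalling genes, MYC2, a transcription factor of the jasmonate response, was lower in Coast plants at 4leaf for both of its genes (LFCs of -3.45 and -1.10), as was the adaptor NINJA (-1.13), while MYC6 was higher (0.77). The 2 genes of the receptor COI1 were not called (0.28 and 0.11), although Migut.F01428 was called higher under 4 alternatives. Among the JAZ repressors, JAZ6 and JAZ8 were lower in Coast plants (-3.60 and -4.89), and JAZ3, at -0.03, was not called and had the other sign with voom and limma or with library size alone. JMT, which methylates jasmonic acid, had 3 reads in all 10 Coast plants and 379 in the 10 Inland plants.

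**Figure D5:**
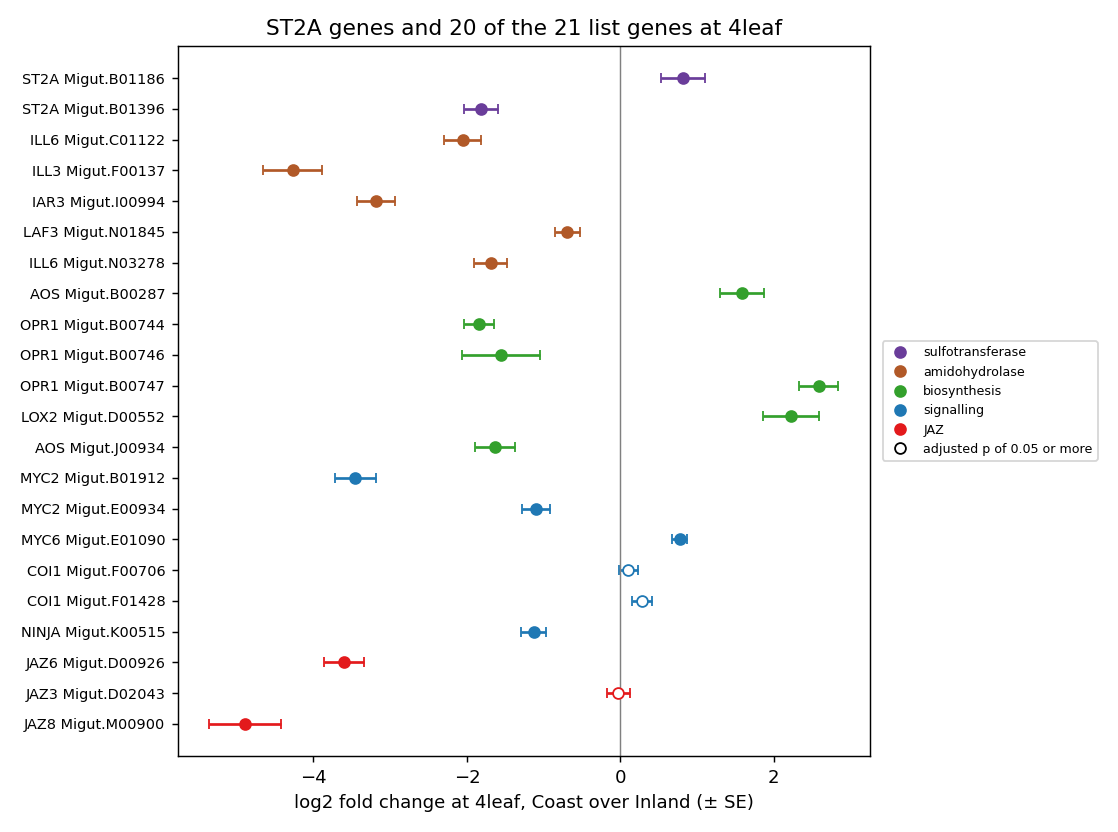
LFC of Coast over Inland at 4leaf for the 2 ST2A genes and 20 of the 21 list genes, coloured by role, with bars of ± 1 SE; open points have an adjusted p of 0.05 or more, and JMT, with 3 reads in Coast plants, is left out. Migut.B01396 lies at -1.82 on the side of all 5 amidohydrolases, and Migut.B01186 lies at 0.82.

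Between 2leaf and 4leaf, 5 of the 21 list genes rose and 2 fell in Inland plants, beside 8.81% of all genes called higher and 8.09% lower. The median LFC of the list was -0.10 against 0 over all genes, and none of the 5 amidohydrolases was called. The genes that fell were JAZ6, with an LFC of -1.50, and JAZ3, with -0.81. Those that rose were AOS Migut.B00287 (1.78), OPR1 Migut.B00744 (0.64) and Migut.B00747 (1.91), COI1 Migut.F00706 (0.49) and JMT (1.94). Over all Inland 2leaf plants together, AOS Migut.B00287 had only 12 reads and OPR1 Migut.B00747 only 14. The interaction at 4leaf was called in the positive direction for 5 and in the negative direction for 2 of the 21, beside 2.54% and 3.94% of all genes, again with none of the amidohydrolases. The called genes were JAZ6 (2.35), JAZ8 (2.68), MYC2 Migut.B01912 (1.64), MYC2 Migut.E00934 (1.24), AOS Migut.J00934 (1.33), AOS Migut.B00287 (-1.64) and OPR1 Migut.B00747 (-2.16). Over all Coast 2leaf plants together, JAZ6 had 37 reads, JAZ8 had 21 and MYC2 Migut.B01912 had 24. The last 2 called genes rest on the low Inland 2leaf reads given above. JAZ8 and AOS Migut.B00287 were not called for the interaction with voom and limma, nor was the rise of JMT in Inland plants. In Coast plants at 4leaf against 2leaf, 4 of 21 rose and 1 fell, beside 4.11% of all genes called higher and 5.04% lower. At 6leaf against 4leaf none rose and 3 fell, beside 4.90% higher and 6.74% lower, and at 8leaf against 6leaf none was called, beside 0.356% higher and 0.263% lower. At 8leaf against 2leaf 5 rose and 4 fell, beside 20.5% higher and 19.5% lower among all genes. Coast 8leaf plants against Inland 4leaf plants gave 4 higher and 14 lower of 21, beside 32.9% higher and 33.2% lower, and 4 of the 5 amidohydrolases were among the lower.

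Finally, the genes whose 8 group means were most like those of each ST2A gene were taken from 17020 candidates, as a description over 8 points that share their libraries. For Migut.B01186 they were Migut.D01619, with a Pearson's r of 0.97 and means of 15.9 CPM in Coast buds and 12.5 CPM in Inland 2leaf plants, and Migut.B00204, with an r of 0.95. Such an r does not weigh the size of a change. From Coast 8leaf plants to Coast buds, the lowest and highest means, Migut.D01619 went from 7.82 to 15.9 CPM. Migut.B00204 went from 23.8 to 60.4 CPM between these groups, and Migut.B01186 from 1.71 to 34.3 CPM. For Migut.B01396 they were Migut.F01342, with an r of 0.98 and means of 1.08 CPM in Coast buds and 10.2 CPM in Inland 4leaf plants, and Migut.L01352, also with an r of 0.98. Between these groups Migut.L01352 went from 6.75 to 35.6 CPM, and Migut.B01396 from 1.98 to 79.5 CPM. An r above 0.95 was reached by 1 candidate for Migut.B01186 and by 16 for Migut.B01396. The r between the 2 ST2A genes over the same 8 means was -0.57. No names are given with these identifiers in the files.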

How the data were processed

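Leaf pairs or floral buds of 80 plants were sequenced by 3′-Tag-Seq. According to the sample labels and the study's methods, the authors trimmed reads with cutadapt, aligned them with BWA to the *M. guttatus* v2.0 genome, filtered the alignments with SAMtools, and counted reads per gene with HTSeq 0.6.1 using strand. The deposited counts are whole, unnormalised read counts for 28140 genes, 2988 of them at 0 in every library. The table's 6 label lines hold no gene. Whether copies made by PCR were removed is not given in the sources used here, so a read count is not a count of independent molecules.

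The 2leaf, 4leaf and bud contrasts were fitted over 60 libraries with genotype, stage and their interaction, and the contrasts with 6leaf or 8leaf or of buds against leaves over all 80 libraries as group means, in edgeR 4.0.16 (R 4.3.3; TMM, filterByExpr with a minimum count of 10, quasi-likelihood F test). p-values were adjusted by Benjamini-Hochberg over 16735 or 17136 genes. SEs are the LFC divided by the root of F. Ratios, sums and deviations were tested by permutation in Python 3.11.15 with NumPy 2.4.6. The edgeR fit was tried on simulated counts for Coast against Inland at 4leaf alone, and the permutation tests were not tried on simulated data. Alternatives used limma 3.58.1 (voom), DESeq2 1.42.0, other scalings and filters, pool or plant number as a term, and other sets of libraries. The members, the 21 list genes and the tests were chosen with earlier results of these data known. The text names the 2 ST2A genes, list genes, and per ST2A gene the 2 most alike in group means. No reference genome of build v2.0 was used, so no sequences or positions are given.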

Additional observations from a re-analysis of the deposited data

Results flagged for a closer look

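The change of Migut.B01186 between 2leaf and 4leaf differed between the accessions, with an interaction of 3.30 (log2, edgeR adjusted p = 1.38e-08). This interaction shares the 2leaf plants with which the study listed the gene, so it is not free of that choice. The mean of Coast plants was 4.98 CPM at 4leaf and 3.26 CPM at 2leaf, while that of Inland plants was 2.83 CPM at 4leaf and 18.5 CPM at 2leaf. Of the 16 gene and group combinations searched for a plant far from the others, 1 stood out, and chance alone gives about 1 in 20. This was Inland bud plant 9, the lowest for Migut.B01396 at 2.73 CPM, whose gap to the next plant on the log2(CPM + 0.5) scale was 0.474 of the whole range of the group. The next lowest Inland bud had 5.95 CPM.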

How the results depend on the processing

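Of the results that answer a comparison, 447 alternative values kept their direction and call or their size, 18 moved, 3 reversed, 8 passed the threshold and 5 lost it; no cause was tested unless stated. With voom and limma, Migut.B01186 missed the threshold at 4leaf (LFC 0.75, adjusted p = 0.0698) and in Coast 8leaf against Inland 4leaf (-0.82, adjusted p = 0.0599), and Migut.B01396 reversed in Coast 8leaf against 2leaf, uncalled in both fits (-0.087). With library size alone, which moved the median LFC of all genes by up to 0.68 (Inland bud against 4leaf), Migut.B01186 was not called in Coast 8leaf against 2leaf (-0.55, adjusted p = 0.116) or Inland 4leaf (-0.45, adjusted p = 0.207), Migut.B01396 was called in Coast 4leaf against 2leaf (0.80, adjusted p = 0.0175) and reversed in Coast 6leaf against 4leaf (0.0067), the sum reversed in Coast 8leaf against 2leaf (0.26, adjusted p = 0.317), and Inland bud against 4leaf gave 1.68 for Migut.B01186 and -2.54 for Migut.B01396. The stricter filter without groups called Migut.B01396 in Coast 4leaf against 2leaf (0.66, adjusted p = 0.0473) and dropped Migut.B01186 from the fit over 80 libraries. The interaction of Migut.B01396 passed the threshold with voom and limma (-1.08), DESeq2 (-0.97), library size alone (-1.03), the stricter filter (-0.97), the replicate block (-0.998) and without 4 named libraries (-0.99). Equal plant numbers did not pair plants (mean r of deviations -0.0056 for equal and 0.0002 for unequal numbers); with plant number as a block the summed level in Coast 4leaf against 2leaf had an adjusted p of 0.0635 (0.58), and JAZ8 lost its interaction (adjusted p = 0.0522).

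The 21 list genes gave other counts with the stricter filter, which tested fewer genes: 2 higher and 8 lower at 4leaf, 2 higher and 1 lower for Inland 4leaf against 2leaf, 2 higher and 0 lower for the interaction, and 1 higher and 8 lower for Coast 8leaf against Inland 4leaf. In Coast 4leaf against 2leaf 2 were higher with voom, and 0 were lower with upper-quartile factors, library size alone or no filter. The interaction had 1 lower with voom and 1 lower without Inland 2leaf plant 5, a setting added after seeing the data. With library size alone 1 was higher in Coast 6leaf against 4leaf and 8 in Coast 8leaf against 2leaf. JAZ3 at 4leaf reversed with voom (0.0098) and library size alone (0.021). Deviation correlations near 0 reversed with pool means removed for Migut.B01186 with Migut.B00746 (0.022) and Migut.B01396 with Migut.F00137 (-0.0018) and Migut.F01428 (-0.033), and with library size alone for Migut.B01186 with Migut.B00746 (0.0063), Migut.F00706 (-0.029) and Migut.C00754 (0.0092) and for Migut.B01396 with Migut.F01428 (-0.020) and Migut.C00754 (0.015).

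Counts of all genes called moved by over 1.5 times with library size alone: 3764 higher and 450 lower against 1475 and 1354 for Inland 4leaf against 2leaf, 1487 and 406 against 688 and 843 for Coast 4leaf against 2leaf, 2759 and 603 against 839 and 1155 for Coast 6leaf against 4leaf, 8423 and 1425 against 3520 and 3338 for Coast 8leaf against 2leaf, 94 higher against 61 for Coast 8leaf against 6leaf, and 227 against 425 positive interactions (786 without the 4 named libraries). The share of calls that were higher was then 65.7% against 49.7% for Coast 8leaf against Inland 4leaf, 70.9% against 51.9% for Coast bud against 8leaf, 76.5% against 51.3% for Inland bud against 4leaf, 71.2% against 57.5% for Coast 8leaf against 6leaf, and 20.7% against 39.2% for the interaction. Without a filter 511 were higher in Coast 6leaf against 4leaf, and 40 were higher and 27 lower in Coast 8leaf against 6leaf, where DESeq2 gave 69 lower against 45. Depth limits Migut.B01186 in leaves, where as few as 3 reads stand behind a plant's value.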
